A study of Mus musculus with 6 samples.

Results

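The genes described here are members of the TNF and TNF receptor superfamily, and the measurement is the binding of p53 around them in mouse spleen. They were chosen by name: every protein-coding gene of the GENCODE vM1 annotation whose symbol starts with Tnfsf or Tnfrsf, together with Tnf, Lta, Ltb, Ltbr, Fas, Fasl, Cd27, Cd40, Cd40lg, Cd70 and Eda2r. This gave 42 of 22284 protein-coding genes, of which 17 encode ligands and 25 encode receptors. A p53 peak was assigned to a gene when it overlapped the gene body extended by 10 kb on both sides.

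The study mapped p53 by ChIP-seq, which sequences DNA fragments pulled down by an antibody, and each library gave a list of peaks, the regions where such fragments pile up. The 5 lists came from C57/Bl6 mice. Wild-type (Trp53+/+) animals of 8 weeks gave B cells, selected on beads by the surface marker B220, and non-B cells, which are the splenocytes left after that selection, in each case from mice that were not irradiated (mock) or that had received 7 Gy to the whole body 4 h earlier (IR). These 4 lists are called B mock, B IR, non-B mock and non-B IR. Total splenocytes of irradiated Trp53-/- mice, with no age in the labels, gave the list that shows what the antibody recovered without p53. Chromatin was pooled across animals and each group had 1 library, so no difference could be set against a spread between replicates, no test was possible, and the 95% Clopper-Pearson intervals given for shares of peaks cover counting error only. The lists hold no read totals, so the depth of the libraries is unknown, and where a list lacks a peak p53 may still have been there below the caller's limit. The identity of the sorted cells could not be checked against marker genes with these files, which hold no expression values. Each peak carries 1 value, the authors' −log10 p-value, which depends on depth and was therefore used only to rank peaks within a list. The lists reach down to values of 5.01 to 5.27. Of the members' peaks, 3 of the 8 in B mock and 0 of the 6 in non-B mock had a value below 8. The shares over all peaks of these lists were 31.6% in B mock and 20.9% in non-B mock. A high percentile means that most peaks of that list had a lower value.

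Ligands of this superfamily are mostly membrane-bound trimers that can be shed, and they act on receptors of neighbouring cells. Some receptors carry a death domain in their cytoplasmic tail and can start caspase activation, while others bind TRAF adaptors and activate NF-kB, and decoy receptors bind ligand without passing on a full signal. p53 is a transcription factor stabilised by DNA damage, and genes of death receptors such as Fas and Tnfrsf10b are textbook p53 targets.

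p53 binds a response element of 20 bases made of a pair of decamers, each with 3 purines, a C, 2 bases that are A or T, a G and 3 pyrimidines. An element was searched with no spacer between the decamers (an unsplit element), with the C and the G of each decamer required and at most 3 mismatches elsewhere, within 300 bp of the midpoint of a peak. The motif reads the same on both strands. Across the lists, 15.3% of all B IR peaks and 15.4% of all non-B IR peaks held one, compared with 3.23% and 3.30% of windows of the same size moved by 10 kb. The following are the member elements with at most 2 mismatches in a fully described IR peak, with the element in capitals, 15 flanking bases on each side, 5′ to 3′ on the strand of the gene (mm9 assembly).
Tnfsf8 (chr4:63503352-63503401, intron): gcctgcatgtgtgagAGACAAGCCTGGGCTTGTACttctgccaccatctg
Fas (chr19:34366839-34366888, intron): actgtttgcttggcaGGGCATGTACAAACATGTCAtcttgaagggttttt
Tnfrsf21 (chr17:43177591-43177640, intron): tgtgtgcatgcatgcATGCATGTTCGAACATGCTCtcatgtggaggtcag
Eda2r (chrX:94571858-94571907, intron): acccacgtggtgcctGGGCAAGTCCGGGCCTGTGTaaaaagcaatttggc
Counted from the 5′ end of the capitals, the Tnfsf8 element had 1 mismatch at position 19 and the Tnfrsf21 element 1 at position 2. The Fas element had mismatches at positions 9 and 20 and the Eda2r element at positions 15 and 19. Each of these runs occurs 1 time in the reference genome.

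In the irradiated lists 29 of 42 members (69.0%) had a peak in B cells and 30 of 42 (71.4%) in non-B cells. Among all protein-coding genes the shares were 53.4% and 51.8%. In the mock lists 9 of 42 members (21.4%) had a peak in B cells and 6 of 42 (14.3%) in non-B cells, beside 4.47% and 2.28% of all genes. At a minimum value of 8, B mock kept 6 members, without Fas, Tnfrsf1b and Eda2r, and 3.13% of all genes. No member had a peak in the Trp53-/- list, where 0.126% of all genes had one, and that list held 83 peaks in all. The median gene length was 13990 bp for members and 15468 bp for all genes. A peak in either IR list was found for 33 members (78.6%) and a peak in both for 26 (61.9%), compared with 55.9% and 49.3% of all genes. All 9 members with a mock peak also had an IR peak, as did 98.7% of all genes with a mock peak.

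By role, a peak in either IR list was found for 15 of 16 TRAF-binding receptors, for 4 of 5 death domain receptors, for 3 of 4 of the group of decoy receptors and Tnfrsf26, and for 11 of 17 ligands. Among all protein-coding genes the share was 55.9%, and groups of 4 and 5 genes are too small to be set against it. In B cells, mock peaks were at 5 ligands, 2 death domain receptors and 2 TRAF-binding receptors, and 4.47% of all genes had one. In non-B cells they were at 5 ligands and 1 death domain receptor, and 2.28% of all genes had one. Of these ligands, Tnf, Lta and Ltb lie next to each other and shared their mock peaks, which lay nearest to the start of Lta. Without these 3 genes the mock counts were 6 of 39 (15.4%) in B cells and 3 of 39 (7.69%) in non-B cells. The shares of all genes were then 4.45% and 2.27%. With each peak counted only for the gene of the nearest start, 7 of 42 members had a B mock peak (16.7%, beside 3.25% of all genes). In non-B mock 4 of 42 had one (9.52%, beside 1.66%). Restricted to promoters (from 5 kb before to 2 kb after any annotated start), 19 members had a peak in B IR and 20 in non-B IR, that is 45.2% and 47.6%, beside 39.3% and 38.1% of all genes.

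**Figure D1:**
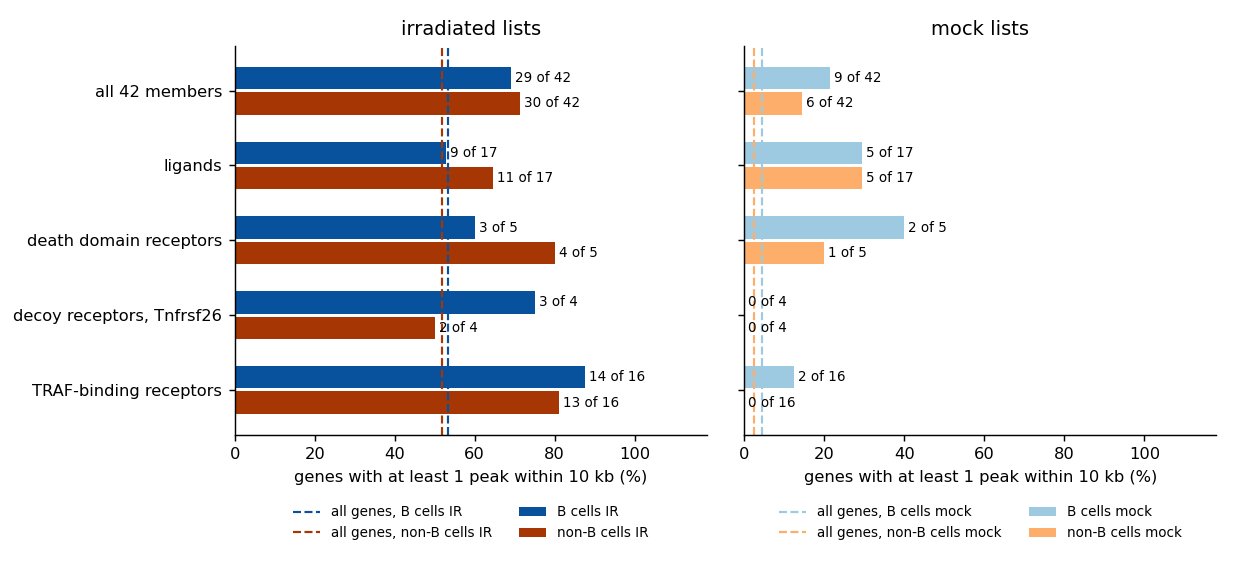
Bars show the percentage of genes of each role with at least 1 p53 peak within 10 kb, for irradiated (left) and mock (right) lists of B and non-B cells, with the counts beside the bars. Dashed lines mark the percentage among all protein-coding genes of the same list; TRAF-binding receptors lie furthest above the line in the B IR list (14 of 16), and ligands have 5 of 17 in both mock lists.

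The members' windows held 66 distinct peaks in B IR and 71 in non-B IR, compared with 8 and 6 in the mock lists. Peaks that overlapped between lists merged into 85 sites. Of these, 46 were in both IR lists, 17 in B IR alone and 22 in non-B IR alone, and all sites with a mock peak had an IR peak. A member's promoter held 45 sites, and 72 had a member's start as the nearest annotated start of any gene. The other 13 lay nearer to the start of a different gene, such as Senp3 beside Tnfsf13 or Thoc6 beside Tnfrsf12a, so the assignment to the member rests on the window alone. The median value of the members' peaks was 21.7 in B IR and 20.5 in non-B IR, against 19.5 and 19.4 for all peaks of these lists. The top 10% of each list held 9 of the 66 (13.6%) and 9 of the 71 (12.7%).

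**Figure D2:**
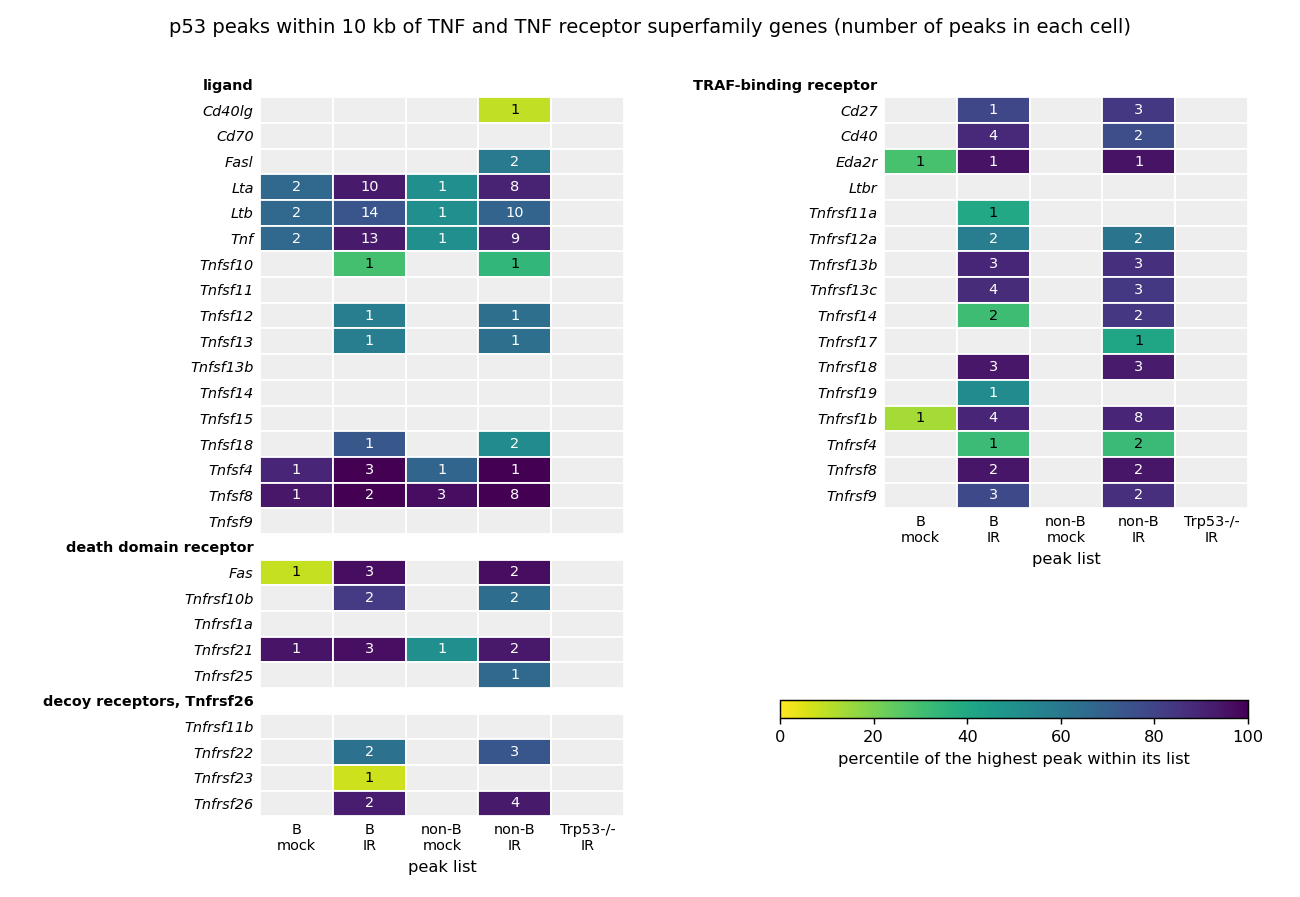
Each row is 1 of the 42 genes grouped by role and each column 1 peak list; the number is the count of peaks within 10 kb, the colour the percentile of the highest of them within its list, and grey means no peak. The windows of Tnfsf8, Tnfsf4, Tnf, Lta, Ltb and Tnfrsf21 hold peaks in all 4 wild-type lists, and the Trp53-/- column is empty. The mock peaks counted for Tnf, Lta and Ltb are the same peaks, and their nearest start is that of Lta.

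Among the ligands, Tnfsf8 (CD30 ligand, a signal between activated lymphocytes) had the highest peak of the 42 genes. It lay inside an intron, 19.1 kb downstream of the gene's start (chr4:63502435-63504205), and held the Tnfsf8 element printed above. Its values were 29.9 in B mock, 319 in B IR, 63.2 in non-B mock and 607 in non-B IR, with no peak in Trp53-/-. It was thus the peak of rank 6 of 24507 in B IR and of rank 2 of 21400 in non-B IR, and it was among the top 10% in both mock lists as well. The start of Tnfsf8 carried non-B peaks alone. The gene's window held 8 sites, of which 2 were shared and 6 were in the non-B IR list alone, and none was in B IR alone. The 6 sites comprised 2 further intron sites 12006 and 14023 bp from the start (values 25.3 and 10.2) and 4 between 1.80 kb upstream and 1.16 kb downstream of the start (values 17.3, 14.2, 11.8 and 26.8). The site at 1.16 kb was also covered by 2 peaks of the non-B mock list, with values of 8.41 and 12.2. No B cells peak, mock or IR, was called within the promoter of this gene.

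Tnfsf4 (OX40 ligand, which costimulates T cells) had the next highest peak, at its start and running into the gene (chr1:163325359-163327534). Its values were 22.3 in B mock, 264 in B IR, 13.95 in non-B mock and 452 in non-B IR. The site ranked 78 and 70 in the IR lists, at the percentile of 99.7 in both. It held no unsplit element within the allowed mismatches anywhere in its bounds. The best pair of decamers there had 6 mismatches without a spacer and 3 with a spacer of 1 base. Among the 100 highest peaks of B IR 81 held an unsplit element within their bounds, and among those of non-B IR 86. Tnfsf4 thus belonged to the smaller part without one. The site did hold 1 decamer that matches at every position, in capitals, shown because the peak has no unsplit element:
Tnfsf4 (chr1:163326627-163326666): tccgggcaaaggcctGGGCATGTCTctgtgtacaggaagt
A single decamer of this kind is common, since 88 of the 100 highest B IR peaks held one, as did 41 of 100 windows of the same widths placed 10 kb away. The 2 mock peaks, of 245 and 121 bp, both covered this decamer. Further peaks of B IR inside the gene were low, with the one at 2.16 kb reaching a value of 7.46.

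**Figure D3:**
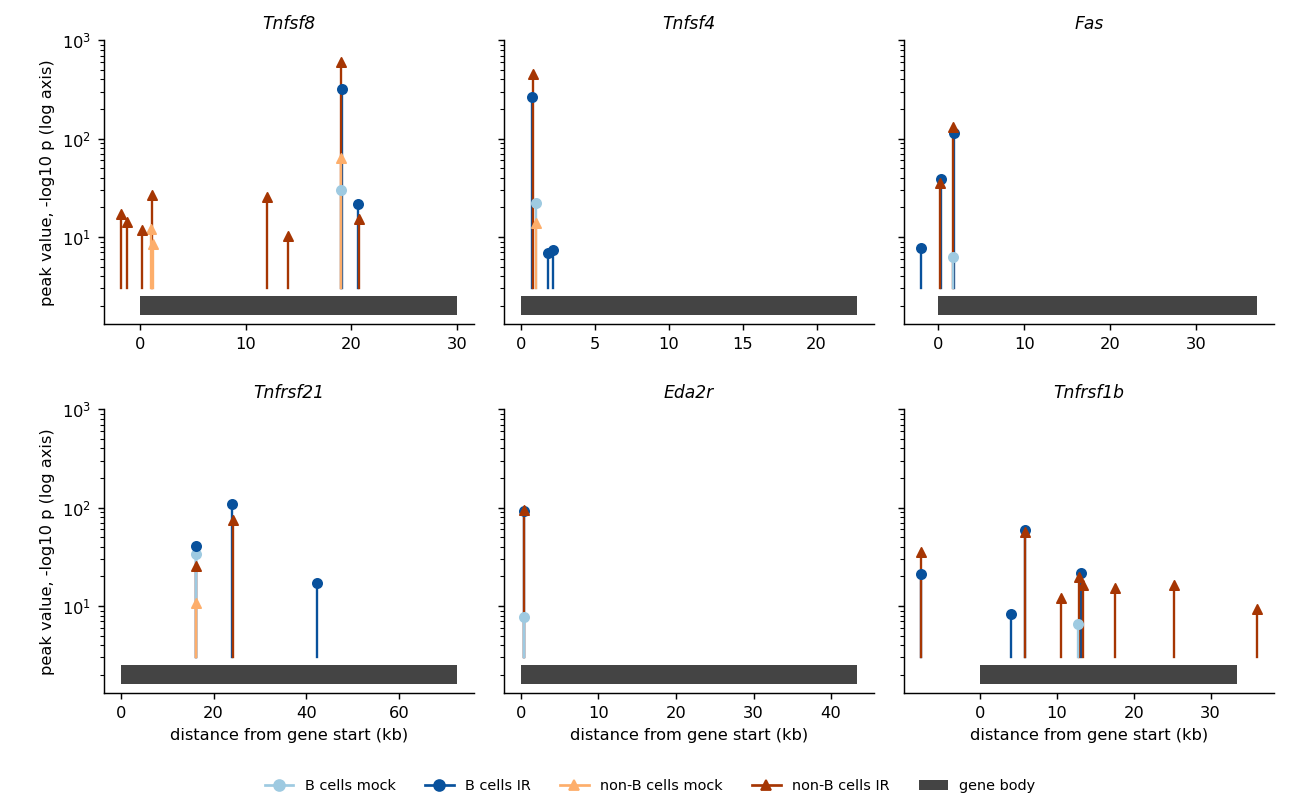
Peaks are drawn by the distance of their midpoint from the start of the gene (kb, along transcription) against their value (−log10 p, log axis) for B cells (circles) and non-B cells (triangles), mock in light and IR in dark colours; the bar is the gene body. Heights can be compared within a list but not between lists; the 19.1 kb intron site of Tnfsf8 carries a peak of each wild-type list, and the sites around the Tnfsf8 start carry non-B peaks only.

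Tnf, Lta and Ltb encode TNF and the lymphotoxins, and stand side by side on chromosome 17. Their windows overlap, so that 14 B IR peaks counted for Ltb, 13 for Tnf and 10 for Lta are largely the same peaks, and in non-B IR the counts were 10, 9 and 8. The highest site lay 4.89 kb upstream of Lta (chr17:35346830-35347536), with values of 77.7 in B IR (percentile 93.2) and 59.9 in non-B IR (percentile 90.5) and no mock peak. The start of Lta carried a pair of sites that were also in the mock lists. The intron site (chr17:35341524-35341844) had values of 11.4 in B mock, 31.4 in B IR, 10.8 in non-B mock and 24.1 in non-B IR. The site across the start itself (chr17:35341938-35342690) had 10.2 in B mock, 32.6 in B IR and 27.7 in non-B IR, and no non-B mock peak. Inside Tnf a pair of intron sites was called in B IR alone, at values of 18.4 and 13.1, while a site 53 bp from the start was called in non-B IR alone at 6.46. Over the gene body and promoter of Ltb the sites in both IR lists reached 18.4 in B IR and 13.1 in non-B IR. No site of the 3 genes held an unsplit element. The higher percentile was in the B cells list at 6 of 6 shared sites in the window of Lta, 6 of 7 in that of Tnf and 7 of 8 in that of Ltb, which are largely the same sites, beside 59.8% of the shared sites genome-wide.

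**Figure D4:**
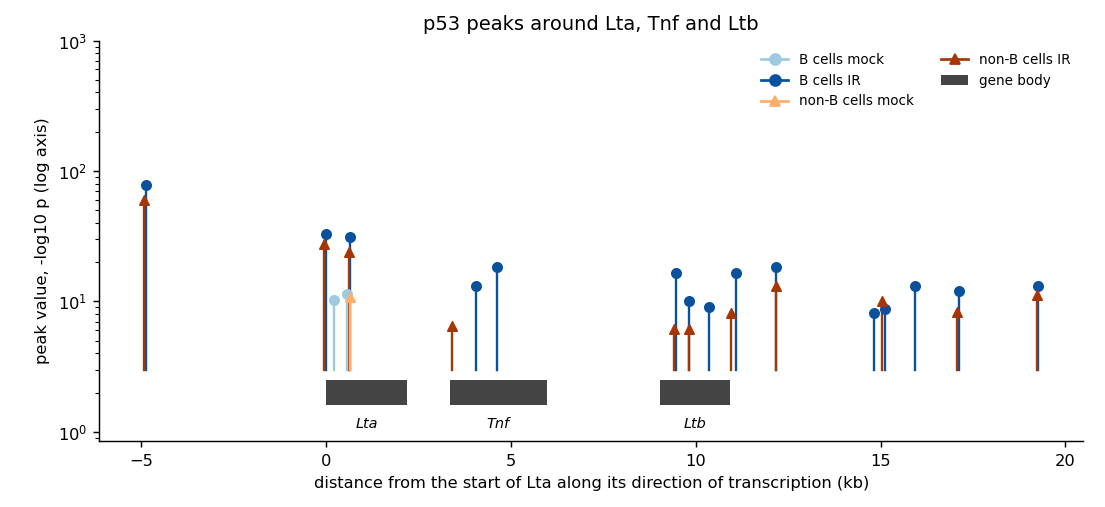
Peak values (−log10 p, log axis) are plotted against the distance from the start of Lta along its direction of transcription (kb), with gene bodies as bars; symbols are as in the plot of single loci. The highest peaks lie 4.89 kb upstream of Lta, mock peaks lie at the start of Lta, and the peaks within Tnf at 18.4 and 13.1 are from B IR.

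Fasl (Fas ligand, a trigger of apoptosis made by cytotoxic lymphocytes) had peaks in non-B IR alone. The site at its start (chr1:163718413-163718807) had a value of 23.0 at the percentile of 59.2, and the site downstream of the gene (chr1:163709253-163709610) 21.8 at the percentile of 56.5. Both lay above the median of their list. Cd40lg (CD40 ligand, the helper signal to B cells) also had a non-B IR peak only, low at 9.27, downstream of the gene and nearer to the start of Arhgef6. Of the other ligands, Tnfsf18 (GITR ligand) had an intron site with 31.9 in B IR and 20.2 in non-B IR. Tnfsf10 (TRAIL, the ligand of Tnfrsf10b) had a site at its start with 13.5 and 14.5. Tnfsf12 (TWEAK) and Tnfsf13 (APRIL) shared 1 site of 22.9 and 25.3 that lay 31 bp from the start of Senp3. Cd70, Tnfsf9, Tnfsf11, Tnfsf13b, Tnfsf14 and Tnfsf15 had no peak in any list.

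The window of 10 kb decided the place of Tnfsf9 (a costimulatory ligand of T cells) and Cd70 (the ligand of CD27). A peak between these genes (chr17:57261077-57262100 in B IR) lay 13.9 kb from Tnfsf9 and 23.3 kb from Cd70, and had values of 169 in B IR (rank 393) and 216 in non-B IR (rank 331). It was higher than the peaks of every member except Tnfsf8 and Tnfsf4, held no unsplit element within 300 bp of its midpoint and was in no mock list. It is not counted among the members' peaks.

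Among the death domain receptors, Fas, the receptor of Fas ligand, had 3 sites around its start. The highest (chr19:34366466-34367380, 1.74 kb downstream of the start) held the Fas element and had values of 6.30 in B mock, 114 in B IR and 130 in non-B IR, and no peak in non-B mock. The mock peak was 70 bp wide, lay across this element and was at the percentile of 8.78 of its list. A site nearer to the start, at 267 bp, had 38.8 and 35.1 in the IR lists, and a site upstream had 7.74 in B IR alone.

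Tnfrsf21 (death receptor 6, expressed on lymphocytes among other cells) had 3 intron sites. The site at 24.1 kb (chr17:43177289-43177855) held the Tnfrsf21 element and had values of 109 in B IR and 75.6 in non-B IR, with no mock peak. The site at 16.2 kb (chr17:43169474-43169969) had no unsplit element and was in all 4 wild-type lists, at 34.2 in B mock, 40.4 in B IR, 10.8 in non-B mock and 25.7 in non-B IR. Its percentile was 94.8 in B mock and 80.6 in B IR. A pair of decamers with a spacer of 3 bases and 2 mismatches lay within 300 bp of the midpoint of its B mock and B IR peaks, outside their bounds. The B mock peak at 16.2 kb was the highest of the 42 genes in that list. The remaining site, at 42.3 kb, had 17.01 in B IR alone.

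Tnfrsf10b (the TRAIL receptor) had a site at its start with 44.0 in B IR and 24.5 in non-B IR, and an intron site with 23.6 and 25.7. Tnfrsf25 (death receptor 3, found mainly on T cells) had 1 site in non-B IR alone (chr4:151494524-151495004, downstream of the gene), with a value of 26.5 at the percentile of 66.1. Tnfrsf1a, the main receptor of TNF, had no peak, and the nearest IR peak lay 76.7 kb away.

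In the group of decoy receptors and Tnfrsf26, the genes Tnfrsf22, Tnfrsf23 (decoy receptors of TRAIL) and Tnfrsf26 are neighbours on chromosome 7. The highest site in the window of Tnfrsf26 (chr7:150785716-150786172) had 70.3 in B IR and 73.5 in non-B IR, but it lay 10 bp from the start of Cars, which encodes a cysteinyl-tRNA synthetase. The site at the start of Tnfrsf26, also the highest in the window of Tnfrsf22, had 25.3 and 31.5. A site 798 bp upstream of that start, which also lay in the window of Tnfrsf22, was in non-B IR alone with a value of 20.5 at the percentile of 53.1. Low peaks at the starts of Tnfrsf22 (17.4) and Tnfrsf23 (8.72) were in B IR alone. Tnfrsf11b (osteoprotegerin, the decoy of RANK ligand) had no peak within 526 kb.

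Among the TRAF-binding receptors, Eda2r (the receptor of the A2 form of ectodysplasin) had 1 site, 407 bp downstream of its start (chrX:94571601-94572534). It held the Eda2r element and had values of 7.82 in B mock, 91.98 in B IR and 93.8 in non-B IR. It ranked 1216 in B IR and 1021 in non-B IR, and there was no non-B mock peak. A second arrangement in the same peak, a pair of decamers with a spacer of 15 bases, had 0 mismatches and shared 1 decamer with the printed element.

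Tnfrsf8 (CD30, the receptor of Tnfsf8) had an intron site 14.7 kb from its start (chr4:144889964-144890609), with 85.7 in B IR and 84.8 in non-B IR, no mock peak and no unsplit element. Its other site, 4.35 kb upstream of the start, had 24.1 in B IR and 16.3 in non-B IR and held an unsplit element of 3 mismatches. The same site held a pair of decamers with a spacer of 2 bases and 1 mismatch. Tnfrsf18 (GITR, a costimulatory receptor of T cells) had its highest site downstream of the gene (chr4:155405935-155406626), with 82.6 and 70.5 and no element within the allowed mismatches. Its sites near the start had elements of 3 mismatches and values of 51.4 and 50.2 at the higher of them. The 9 member peaks in the top 10% were the same 9 sites in both IR lists, namely those of Tnfsf8, Tnfsf4, Fas, Tnfrsf21, Eda2r, Tnfrsf8, Tnfrsf18, Lta and the Cars start, and 4 of these sites held an unsplit element.

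Tnfrsf1b (the second TNF receptor) had the most sites of any receptor, 8 over 33408 bp of gene and its flanks, 3 of them shared. The highest, in an intron at 5.84 kb, had 59.7 in B IR and 56.1 in non-B IR. The intron site at 13.1 kb (chr4:144823225-144824143) had 6.64 in B mock, 21.7 in B IR and 19.5 in non-B IR, and no non-B mock peak. Of the other 5 sites, 4 were in non-B IR alone with values between 9.27 and 16.3, and 1 in B IR alone with 8.33.

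Tnfrsf14 (the receptor of the ligand LIGHT) had 3 sites, of which 1 was shared, 1 was in B IR alone and 1 in non-B IR alone. Its highest site, 8.25 kb upstream (chr4:154310635-154311207), had 43.9 in non-B IR at the percentile of 84.0 and was in no B cells list. At the start a site of 8.33 was in B IR alone, and a site 1.06 kb upstream had 13.9 in B IR and 7.66 in non-B IR. Tnfrsf19 (TROY, known mostly from embryonic and neural tissue) had 1 site, 5.48 kb upstream (chr14:61671007-61671337), with 20.4 in B IR at the percentile of 52.1 and no peak in the other lists.

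Cd40, Tnfrsf13c and Tnfrsf13b, through which B cells receive helper and survival signals, are grouped here after their values were seen. Cd40 had 4 B IR peaks, of which the highest, 871 bp downstream of the start, had 57.1 (percentile 88.8), and 34 in non-B IR (percentile 76.4). Tnfrsf13c (the receptor of BAFF) had 4 B IR peaks, the highest at 54.2 (percentile 87.8) against 28.97 (percentile 70.1) at the same site in non-B IR, where the highest of the gene was 43.2 at a site downstream of it. Tnfrsf13b (TACI) had 3 shared sites with 24.1, 27.3 and 58.5 in B IR and 13.1, 16.2 and 47.3 in non-B IR. In these 3 genes all 8 shared sites had the higher percentile in the B cells list. As the group was made after the values were seen, this count is no test of a B cell pattern. A further 3 sites were in B IR alone, at low percentiles of 19.1, 3 and 7.65, and 0 in non-B IR alone. Cd27, left out of this group, had 1 shared site, higher in non-B cells, and 2 sites in non-B IR alone. Among the 46 shared sites of all members, 28 (60.9%) had the higher percentile in B cells, as did 59.8% of 17838 shared sites genome-wide. Tnfrsf17 (BCMA, of plasma cells) had only a low non-B IR peak of 16.3, which lay 63 bp from the start of Snx29.

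The remaining receptors ranged from no peak to the upper ranks of the lists. Tnfrsf9, a costimulatory receptor of T cells, had a site at its start with 37.1 in B IR (percentile 77.9) and 48.8 in non-B IR (percentile 86.7). Cd27 had a site of 37.8 and 43.2 that lay at the start of Tapbpl, and 2 low sites around its own start in non-B IR alone. Tnfrsf4 (OX40, the receptor of Tnfsf4) shared with Tnfrsf18 a site of 14.1 and 13.1, and had a site of 14.15 in non-B IR alone that lay nearer to the start of Sdf4. Tnfrsf12a (the receptor of TWEAK) had 11.2 and 14.2 at its start, and its highest values, 22.9 and 24.1, at a site beside the start of Thoc6. Tnfrsf11a (RANK) had a single peak of 16.2 in B IR, and Ltbr, the lymphotoxin beta receptor, had none.

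The comparison of compartments gave different shares from each side. Of the 66 B IR peaks of members 49 overlapped a non-B IR peak (74.2%, 95% interval 62.0 to 84.2%), beside 73.6% of all B IR peaks. Of the 71 non-B IR peaks 49 overlapped a B IR peak (69.0%, 56.9 to 79.5%), beside 85.3% of all non-B IR peaks. Of the 22 sites in non-B IR alone, 6 were at Tnfsf8 and 4 at Tnfrsf1b. Above the median of their list were 7 of the 22 sites and 1 of the 17 sites in B IR alone, compared with 32 of the 46 shared sites in non-B IR and 35 of the 46 in B IR. The same split over all peaks of the lists was not computed, so these counts cannot be read as particular to the members.

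**Figure D5:**
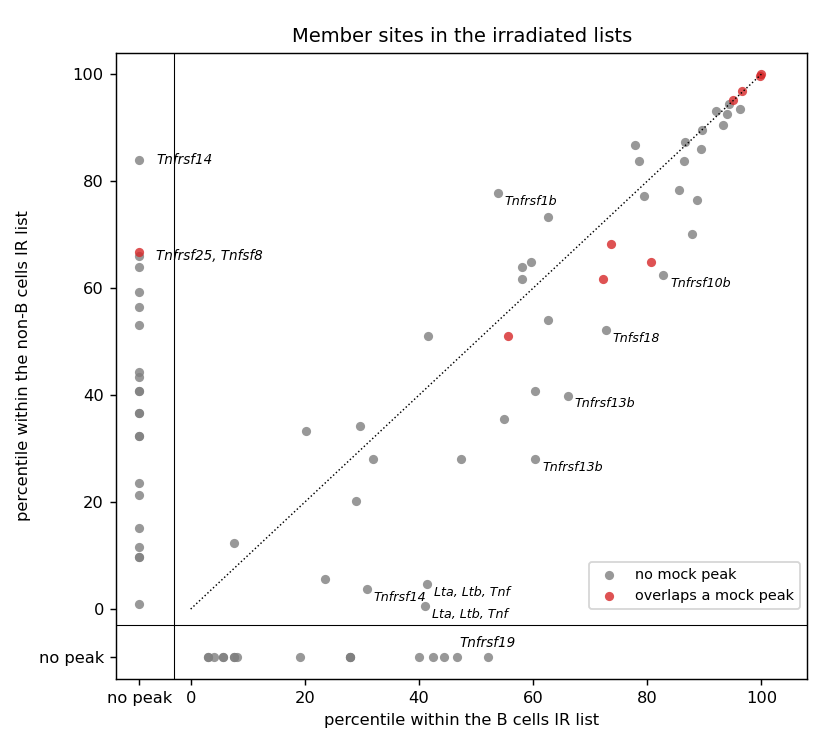
Each point is 1 of the 85 merged member sites, placed by its percentile within the B IR list (x) and within the non-B IR list (y), with sites missing from a list on the margins; red points overlap a mock peak, and the dotted line marks equal percentiles. The highest sites lie near the line in both lists, and the highest site missing from the B cells list is that of Tnfrsf14 at the percentile of 84.0.

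Overlap with the mock lists was counted next. Of the 66 B IR peaks 8 overlapped a B mock peak (12.1%, 5.38 to 22.5%), compared with 4.28% of all B IR peaks. Of the 71 non-B IR peaks 5 overlapped a non-B mock peak (7.04%, 2.33 to 15.7%), compared with 2.43%. The 9 sites behind these counts were those of Tnfsf8 (intron and start), Tnfsf4, Lta (a pair), Tnfrsf21, Fas, Tnfrsf1b and Eda2r. In both mock lists were 4 of them, in B mock alone 4 and in non-B mock alone 1. The median width of all peaks was 95 and 93 bp in the mock lists and 340 and 315 bp in the IR lists, and what this difference in calling adds to the numbers was not tested.

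An unsplit element was present in 8 of 66 B IR peaks (12.1%, 5.38 to 22.5%) and in 8 of 71 non-B IR peaks (11.3%, 4.99 to 21.0%), close to the 15.3% and 15.4% of all peaks given above. Member peaks with an element had a median value of 71.7 in B IR against 20.7 for those without, and 62.9 against 20.2 in non-B IR. For all peaks the medians were 31.7 against 18.4 and 31.5 against 18.4. The 9 sites with an element included 2 with 1 mismatch, 3 with 2 and 4 with 3. Pairs of decamers with a spacer of 1 to 15 bases and at most 2 mismatches were also counted. An unsplit or spaced pair was present in 21.2% of the members' B IR peaks, beside 25.9% of all B IR peaks. In non-B IR the shares were 19.7% and 25.3%.

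Read from the sequence, the members' windows held 22 unsplit elements with at most 2 mismatches, of which 5 lay in an IR peak (22.7%, 7.82 to 45.4%), against 12.8% of 13905 such elements in the windows of all genes. The 5 were the 4 printed above and 1 in the UTR of Tnfrsf11a, at the low peak found in B IR alone, with mismatches at positions 2 and 11. Tnfrsf19 held 5 of the 22, and none of these lay in a peak. One of them, inside the gene, had no mismatch at all. Of the 284 elements without a mismatch in the windows of all genes, 54.6% lay in an IR peak, whereas the nearest IR peak to that of Tnfrsf19 was 71.7 kb away. Another element with 1 mismatch at position 15, in the window of Tnfrsf12a, lay 3.41 kb from the nearest IR peak. These runs were chosen after the values were seen, to show the element of a weak peak beside ones that had no peak.
Tnfrsf11a (chr1:107743170-107743199, in a B IR peak of 16.2): ttaacATGCATGCCTTAACTTGTCTaccag
Tnfrsf19 (chr14:61599241-61599290, in no peak): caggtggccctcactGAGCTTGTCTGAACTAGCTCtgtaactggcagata
Tnfrsf12a (chr17:23806947-23806996, in no peak): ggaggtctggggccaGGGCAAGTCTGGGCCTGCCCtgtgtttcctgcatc
A match of letters is a description of the sequence and says nothing on its own of binding in other cells.

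Downstream of the receptors, 31 signalling genes were counted with the same window. Of these 29 (93.5%) had a peak in each IR list, 4 (12.9%) in B mock and 2 (6.45%) in non-B mock, and none in Trp53-/-. The shares of all genes were the 53.4%, 51.8%, 4.47% and 2.28% given above. The signalling genes had a median length of 32808 bp, against 15468 bp for all genes, and the part of gene length in these counts was not tested. All 18 adaptors and kinases had a peak in both IR lists, as did 5 of 6 inhibitors and 6 of 7 effectors. The highest peaks were in the windows of Ikbkg (a subunit of the IkB kinase complex), with 140 in B IR and 224 in non-B IR, and of Birc3 (an inhibitor of apoptosis), with 115 and 107. For peaks of the signalling genes the nearest start was not determined, so their assignment rests on the window alone. Among the TRAF adaptors, Traf1 had 87.7 and 103, and Traf4 86.3 and 53.3. Xiap and Mlkl had no peak. Casp8, the initiator caspase of death receptors, had 18.7 and 26.3, and Cflar, its inhibitor, 25.5 and 20.4.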

How the data were processed

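p53 ChIP-seq was done by the study on chromatin of mouse splenic B cells, non-B cells and Trp53-/- spleen. Per the labels, the authors aligned reads to mm9 with BWA 0.6.2 and used SAMtools, and per the methods of the study peaks were called with MACS. The deposited lists, 1 per library, hold a start, an end and 1 value per peak, which the authors computed as −log10 of a p-value. The calling limit stated in the methods corresponds to a value of 8, and the lists hold lower values, which were kept. The Input library was not used here as a list.

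Coordinates are given from 1 on mm9, and genes come from GENCODE vM1. Peaks overlapped a gene window or another peak by at least 1 bp. Shares have exact (Clopper-Pearson) 95% intervals, and the background is the same share over all genes or all peaks of the list. The genes, their roles and the signalling list were chosen with earlier results of these data known. 1 gene of the signalling list is not reported here and was left out of its counts. Described in full were members with a mock peak, with a peak in the top 10% of an IR list, or with an IR peak above the median of its list that the other compartment lacked. The others were given by counts and selected values. Alternatives were other windows, minimum values, list sizes, overlap rules and element settings. Overlap and element steps, tested on simulated data, recovered what had been planted. The simulated sequence around the planted elements held only A and T, so this could not show how often false elements arise in genomic sequence. The tools were pysam 0.24.0, pandas 2.3.3, scipy 1.17.1, numpy 2.4.6 and matplotlib 3.10.9 under Python 3.11.15.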

Additional observations from a re-analysis of the deposited data

How the results depend on the processing

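The number of members with a peak, the number of their peaks, the overlaps and the element shares were recomputed under other settings, which gave 168 values. Of these, 149 stayed within 1.5 times the main count or within the 95% interval of the main share. This count overstates stability, since some values could not move. No member had a Trp53-/- peak in any setting, and no member peak overlapped that list, so removing such overlaps changed nothing. The intervals of the mock element shares were also wide, 8.52 to 75.5% in B cells and 0.421 to 64.1% in non-B cells. With promoters alone, members with a peak numbered 5 in B mock (11.9%, beside 1.96% of all genes) and 19 in B IR (45.2%, beside 39.3%). The members' peaks then numbered 5 in B mock, 39 in B IR and 37 in non-B IR. With a minimum value of 20, members with a peak numbered 3 in B mock (7.14%, beside 0.628% of all genes). In non-B mock 1 was left, Tnfsf8 (2.38%, beside 0.48% of all genes). At this value the members' peaks numbered 3 and 36 in the mock and IR lists of B cells and 1 and 37 in those of non-B cells. Of these non-B IR peaks 81.1% overlapped a B IR peak. The gene body alone gave 42 peaks in each IR list, and a window of 50 kb gave 136 in B IR and 128 in non-B IR. A minimum value of 8 and lists of equal size each left 5 B mock peaks. Without Tnf, Lta and Ltb, a setting chosen after seeing the data, 3 members (7.69%) had a peak in non-B mock, beside 2.27% of all genes. The share of members with a peak stayed above that of all genes in the 4 wild-type lists under every setting of window, value and list tried. No paired analysis was possible because no group had more than 1 library, so leaving 1 out was not possible either. Depth is unknown, and it limits every statement on a missing peak.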
